A study of Sus scrofa with 2 samples.

Results

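This account covers 6 genes of the vascular endothelium, followed across the cell classes of pig endometrium. They are the VEGF receptors FLT1 and KDR, the VEGF-family ligand VEGFC, the apelin receptor APLNR, the diaphragm protein PLVAP and TM4SF18, a membrane protein of the L6 family. The members were chosen by symbol, and each of the 6 symbols stood on 1 of the 26881 gene rows of the deposited tables. The tissue was endometrium, which lines the uterus, and it came from 2 Yorkshire sows aged 3 years after artificial insemination. The design text places 1 sow at 7 days and 1 at 13 days of gestation, but the sample labels number the libraries without a day. The comparison is therefore given between library 2 and library 1, each made from dissociated endometrium of 1 sow, with 1 library a group. A difference between libraries cannot be told apart from a difference between sows, tissue samples or library preparations.

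VEGF ligands are secreted proteins that bind receptor kinases on endothelial cells. KDR, also called VEGF receptor 2, carries most of the growth and permeability signal of VEGFA. FLT1, VEGF receptor 1, binds VEGFA tightly with weak kinase activity, and its soluble form acts as a trap for the ligand. VEGFC is known above all as the ligand of FLT4 on lymphatic vessels, and its processed form also binds KDR. APLNR is a G protein-coupled receptor for the peptides apelin and ELABELA, known from veins and growing vessels. PLVAP forms the diaphragms that span fenestrae, caveolae and transendothelial channels, and it is known from permeable capillaries and venules rather than arteries. In zebrafish, tm4sf18 is a target of Vegf signalling that amplifies that signal in sprouting cells.

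Single cells were captured in droplets, and each transcript was counted once by its unique molecular identifier (UMI). Library 2 held 15093 barcodes with 87514969 UMIs and a median of 4335 UMIs per barcode, and library 1 held 10045 barcodes with 45388759 UMIs and a median of 3431. After called doublets were removed, 12673 and 8930 cells remained in library 2 and library 1. The libraries shared 48 barcodes. Cell classes were named from marker lists that hold none of the 6 genes, and the 6 genes were left out of the genes used for clustering. Levels are UMIs of a gene per 1000000 UMIs of the summed cells (CPM), and brackets give 95% intervals. These intervals cover counting error only, since cells of 1 library are not replicates, and no test between libraries was possible.

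Blood endothelial-like cells numbered 2555 in library 2 and 2562 in library 1, which is 20.2% and 28.7% of kept cells. All 9 blood endothelial markers with a symbol had UMIs there in both libraries, with a summed level of 4676 CPM in library 2, against 5647 CPM in library 1. The class was named from this list. In lymphatic endothelial-like cells the same list summed higher, at 6427 CPM in library 2 and 6972 CPM in library 1. Lymphatic markers in blood endothelial-like cells summed to 8.90 CPM in library 2, against 16.0 CPM in library 1, with NTS at 0 in both. The class drew its cells from different clusters, led by ACKR1 and CLEC3B and by CLDN5 and MCTP1 in library 2, and by CLEC3B and ACKR1 and by CLDN5 and SPOCK2 in library 1. RNA of other cell types differed between the libraries inside this class. Epithelial markers summed to 984 CPM in library 2, against 25.5 CPM in library 1, where MUC1 was at 0, and all 10 stromal markers were present with 468 CPM in library 2, against 1803 CPM in library 1. T or NK cell markers summed to 151 CPM with NCR3 at 0 in library 2, and to 25.2 CPM with BCL11B, KLRD1 and NCR3 at 0 in library 1. Ribosomal protein genes took 6.51% of the class's UMIs in library 2 and 14.3% in library 1. The part of these differences in the results was not tested.

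The 6 genes were transcripts of the blood vessel lining in both libraries. Blood endothelial-like cells held between 78.2% and 90.4% of each gene's UMIs in library 2 and between 72.8% and 88.0% in library 1. VEGFC had the lowest share in both, with 78.2% in library 2 and 72.8% in library 1. The epithelial-like class, which should lack these genes, was taken as a comparison level, since free RNA was not measured here and its level in CPM can vary with the depth of a class. Its median depth was 4720 UMIs per cell in library 2 and 7128 in library 1, against 4306 and 3026 in blood endothelial-like cells. There PLVAP had 26.1 CPM in library 2, against 24.6 CPM in library 1, and the other 5 genes lay between 0.985 and 10.3 CPM in library 2 and between 2.49 and 8.08 CPM in library 1.

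**Figure D1:**
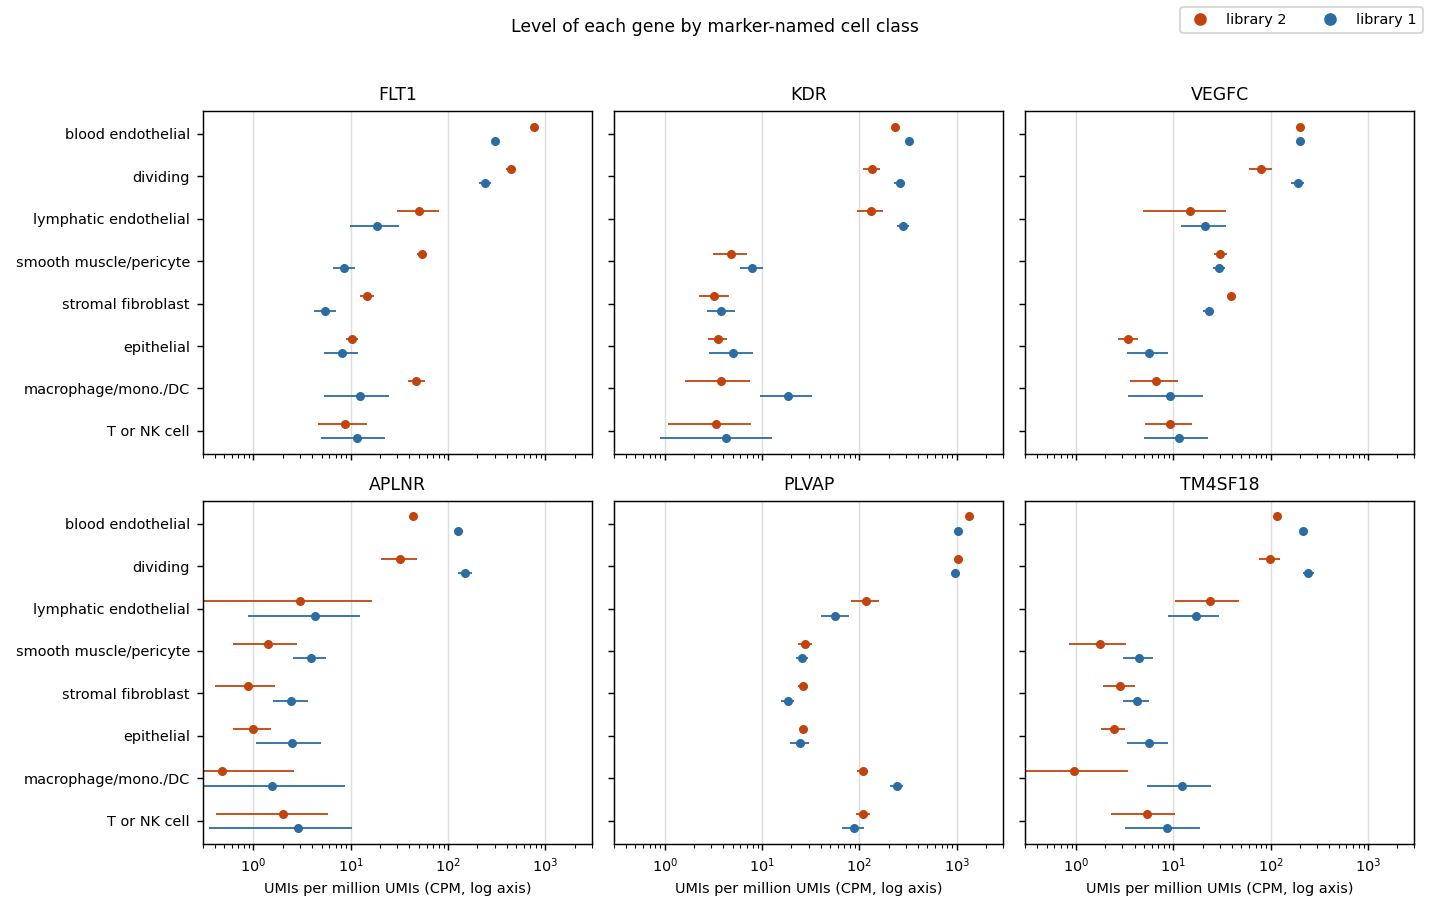
Levels of the 6 genes (CPM, log axis) in 8 cell classes of library 2 (upper point of each pair) and library 1 (lower point), with 95% counting intervals. All 6 genes are highest in blood endothelial-like or dividing cells, KDR is also high in lymphatic endothelial-like cells, and PLVAP stands above the epithelial level in macrophage-like and T or NK cell-like cells.

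FLT1 was higher in library 2. In blood endothelial-like cells it had 10633 UMIs and 769 CPM in library 2, against 3144 UMIs and 303.0 CPM in library 1. The log2 ratio was 1.34 (1.29 to 1.40). With each cell thinned to 1000 UMIs, FLT1 was seen in 48.9% of cells in library 2 and 23.9% in library 1, and unthinned in 86.7% and 57.3%. In epithelial-like cells the thinned shares were 0.707% and 0.995%. FLT1 was the only 1 of the 6 genes past 2-fold in the direction of library 2, a side on which 24.0% of the 15344 genes measured in this class lay.

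KDR differed the other way from FLT1, although both receptors bind VEGFA. It had 230.0 CPM in library 2, against 320 CPM in library 1 (log2 ratio -0.48, interval -0.55 to -0.41). Thinned to equal depth, 20.0% of blood endothelial-like cells had a KDR UMI in library 2 and 24.6% in library 1. The unthinned shares, 57.3% in library 2 and 56.4% in library 1, had the opposite order in cells of unequal depth. NRP1, the co-receptor that presents VEGFA to KDR, had 325 CPM in library 2, against 452 CPM in library 1 (log2 ratio -0.48, interval -0.54 to -0.42). NRP2, a co-receptor that also binds VEGFC, had a ratio of 0.19 (0.05 to 0.33). The third VEGF receptor, FLT4, has no symbol in these tables and was not analysed here.

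VEGFC was level between the libraries over the class as a whole. It had 202 CPM in library 2, against 200 CPM (199.6) in library 1 (log2 ratio 0.02, interval -0.07 to 0.10). Thinned shares were 15.7% of cells in library 2 and 15.5% in library 1. None of the 4 VEGF ligands with a symbol was past 2-fold in this class, beside 40.7% of all genes measured in it, and their median log2 ratio was -0.03. So few genes do not set the ligands apart. VEGFA had only 19.02 CPM in blood endothelial-like cells of library 2 and 16.1 CPM in those of library 1.

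APLNR and its ligand were both lower in library 2. APLNR had 605 UMIs and 43.8 CPM in library 2, against 1300 UMIs and 125 CPM in library 1. The log2 ratio was -1.52 (-1.66 to -1.38), and 16.7% of genes were past 2-fold on that side. Thinned shares were 3.85% of cells in library 2 and 10.0% in library 1. Apelin itself, encoded by APLN, had 15.8 CPM in library 2, against 30.8 CPM in library 1 (log2 ratio -0.97, interval -1.22 to -0.72). APELA, which encodes ELABELA, had 0 UMIs in these cells of library 2, and 1 UMI in those of library 1.

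PLVAP was moderately higher in library 2 and TM4SF18 was lower. PLVAP had 1340 CPM in library 2, against 1019 CPM in library 1 (log2 ratio 0.40, interval 0.36 to 0.43). Thinned shares of cells with PLVAP were 66.5% in library 2 and 52.5% in library 1. TM4SF18 had 117 CPM in library 2, against 215 CPM in library 1 (log2 ratio -0.88, interval -0.97 to -0.79). Its family member TM4SF1, a widespread endothelial surface protein, had 1357 CPM in library 2, against 1212 CPM in library 1 (log2 ratio 0.16, interval 0.13 to 0.20). Over all genes measured in the class the median ratio was -0.12, and 40.7% were past 2-fold in either direction, against 2 of the 6 genes here.

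**Figure D2:**
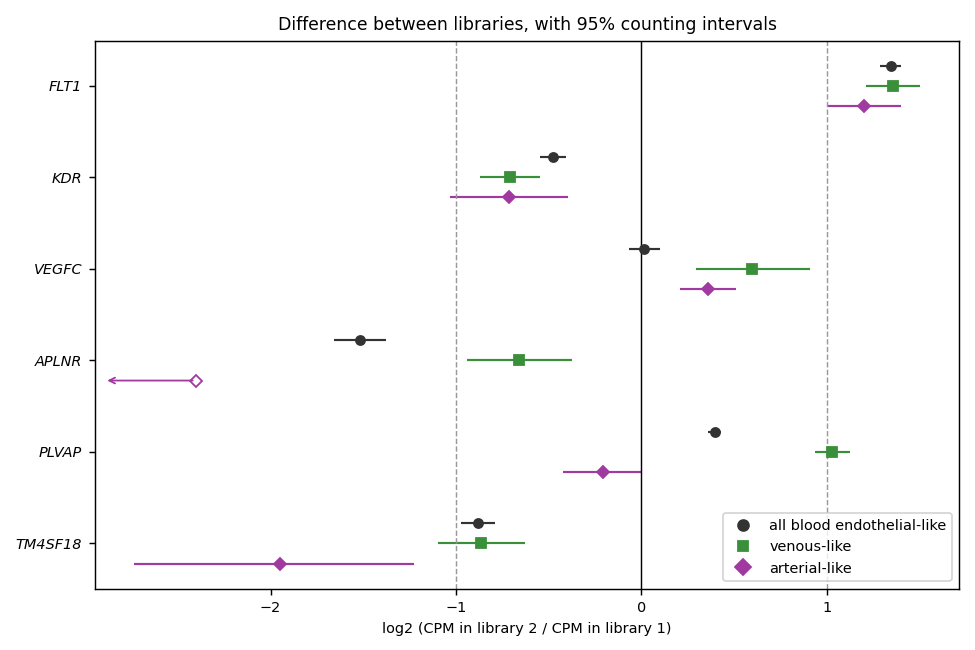
Log2 ratio of library 2 over library 1 for the 6 genes in all blood endothelial-like cells, in venous-like cells and in arterial-like cells, with 95% counting intervals. Dashed lines mark 2-fold, and the open symbol with an arrow is a value at the floor of 3 UMIs, since APLNR had 0 UMIs in arterial-like cells of library 2. FLT1 lies to the right and KDR, APLNR and TM4SF18 to the left of 0 in all 3 groups, while PLVAP is higher in venous-like cells of library 2 and its interval reaches 0 in arterial-like cells.

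The libraries also differed by the genomic span of genes, the distance from a gene's start to its end with introns included. Spans came from the RefSeq table of the Sscrofa11.1 assembly, which held 95.5% of the tested genes with a symbol. The deposited tables use gene identifiers of another annotation, so the spans are approximate and serve to order the genes. Among the quintile of genes with the shortest spans, the median log2 ratio in blood endothelial-like cells was -0.47, and among the quintile with the longest spans it was 1.21. FLT1 spans about 176 kb in that table and belongs to the longest quintile, and its ratio lay 0.13 above the median of that quintile. VEGFC spans 98.5 kb, and its ratio stood at -1.196 from the same median. APLNR spans 3.72 kb and belongs to the shortest quintile, where its ratio lay 1.05 below the median (-1.05). KDR, with 47.3 kb, and TM4SF18, with 21.7 kb, both stood 0.66 below their quintiles' medians (-0.66 each), and PLVAP, with 19.9 kb, stood 0.62 above its own. Set against genes of like span, FLT1 was therefore near the middle, with 55.0% of the quintile's genes at a lower ratio, while PLVAP had 75.03% and APLNR 9.49% of their quintiles at a lower ratio.

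**Figure D3:**
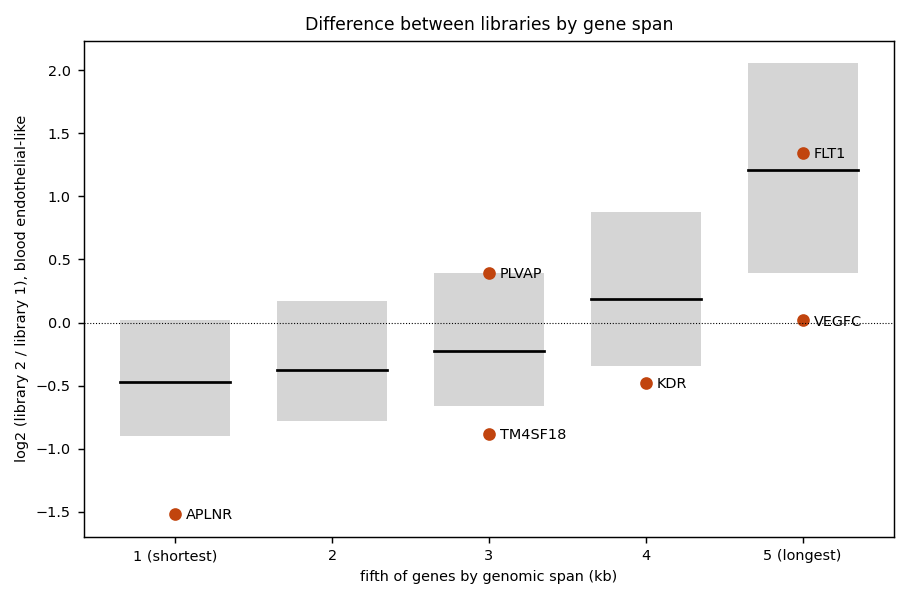
Log2 ratio of library 2 over library 1 in blood endothelial-like cells by quintile of genes ordered by genomic span. Black lines are medians and grey boxes hold the middle of each quintile, from its lower to its upper quartile, with the 6 genes as points. FLT1 sits near the median of the longest quintile, VEGFC and KDR sit below the boxes of their quintiles, and APLNR and TM4SF18 are also below theirs.

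Blood endothelial-like cells were reclustered within each library, without the 6 genes, to place them along the vessel tree. In library 2, 249 cells were arterial-like, led by GJA5 and CLDN5, and 790 were venous-like, in a cluster led by SLCO2A1 and EMILIN2 and another led by ACKR1 and HDAC9. In library 1, 366 cells were arterial-like, led by CLDN5 and GJA5, 488 were venous-like, led by ACKR1, and 469 were capillary-like, led in their larger cluster by CXCL10 and BTNL9. No cluster of library 2 met the capillary marker rule, and its 2 largest clusters remained unnamed. They held 601 cells led by SLCO1A2, GALNT18 and ATRNL1, and 851 cells led by DPP6, LRFN5 and PID1. Library 1 had unnamed clusters of 567 cells led by MT2A and of 616 cells led by IGFBP5 and ISLR.

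VEGFC was higher in arterial-like than in venous-like cells of both libraries. In library 2 it had 612 CPM in arterial-like cells and 95.9 CPM in venous-like cells, a log2 ratio of 2.67 (2.51 to 2.84). In library 1 it had 478 CPM in arterial-like cells and 63.4 CPM in venous-like cells, a ratio of 2.91 (2.62 to 3.22). Thinned to equal depth, 43.7% of arterial-like and 6.91% of venous-like cells had a VEGFC UMI in library 2, and 37.3% and 5.43% in library 1. VEGFC was the only 1 of the 6 genes past 2-fold towards the arterial-like cells, beside 8.25% of genes in library 2 and 8.64% in library 1.

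APLNR, TM4SF18 and PLVAP went the other way between these zones. All 3 were more than 2-fold lower in arterial-like than in venous-like cells of both libraries, beside 6.14% of genes in library 2 and 6.52% in library 1. In library 2 APLNR had 0 UMIs in arterial-like cells and 282 UMIs in venous-like cells, and a count of 0 in 249 cells allows a share of cells with a UMI of up to 1.205%. With its count of 0 set to a floor of 3 UMIs summed over the zone, APLNR was 26.3-fold lower in arterial-like cells there. That is a log2 ratio of -4.72, and the upper end of its interval was -4.41. With finer clusters APLNR had 8 UMIs in arterial-like cells of library 2 and was 11.8-fold lower than in venous-like cells. In library 1 it had 16 UMIs in arterial-like cells and 164 in venous-like cells, a log2 ratio of -2.98 (-3.82 to -2.24). TM4SF18 had 14.9 CPM in arterial-like and 80.0 CPM in venous-like cells of library 2, and 57.5 and 146 CPM in library 1. The ratios were -2.43 (-3.15 to -1.78) in library 2 and -1.34 (-1.73 to -0.97) in library 1. With finer clusters the TM4SF18 ratio was -1.05 (-1.49 to -0.62) in library 2 and -1.25 in library 1, so the order of the libraries depended on the clusters.

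PLVAP had 255 CPM in arterial-like and 1271 CPM in venous-like cells of library 2, a ratio of -2.32 (-2.48 to -2.16). In library 1 it had 294 CPM in arterial-like and 623 CPM in venous-like cells, a ratio of -1.08 (-1.25 to -0.92). The arterial-like level was thus close in the libraries, and the venous-like level was the one that differed. KDR had a ratio of arterial-like over venous-like cells of -0.85 in library 2 (-1.12 to -0.59) and -0.85 in library 1 (-1.08 to -0.62). With finer clusters, at resolution 1.0, the KDR ratio was -0.21 in library 2 (-0.44 to 0.01), an interval that holds 0, and -0.70 in library 1. FLT1 had the flattest profile along this axis, with a ratio of -0.38 (-0.50 to -0.26) in library 2 and -0.22 (-0.43 to -0.003) in library 1. With the finer clusters the FLT1 ratio in library 2 was 0.06, so its direction there depended on where the zones were drawn.

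Capillary-like cells of library 1 held the highest zone levels of 5 of the 6 genes in that library. PLVAP had 1864 CPM there, against 623 CPM in venous-like cells, a log2 ratio of 1.58 (1.49 to 1.68). KDR had 441 CPM in capillary-like and 292 CPM in venous-like cells, a ratio of 0.60 (0.44 to 0.75), and FLT1 had 431 and 254 CPM, a ratio of 0.77 (0.60 to 0.93). APLNR, TM4SF18 and VEGFC had ratios of 0.94, 1.15 and 2.47 over venous-like cells. VEGFC, PLVAP and TM4SF18 were past 2-fold here, beside 7.64% of genes, and VEGFC had a ratio of -0.44 (-0.59 to -0.29) in capillary-like over arterial-like cells. The larger capillary-like cluster, 419 of the 469 cells, did not keep that name under either alternative. Its counterpart was unnamed with finer clusters (400 cells) and with the 6 genes kept among the clustering genes (576 cells), which left 46 and 50 capillary-like cells in a cluster led by ECM1. Over arterial-like cells the VEGFC ratio then turned to 0.40 (0.14 to 0.65) and 0.24 (-0.01 to 0.49). Over venous-like cells PLVAP then had ratios of 1.09 and 0.88, and TM4SF18 of 0.64 and 0.45.

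A cluster of 50 capillary-like cells in library 1, led by ECM1, RGCC and KCNE3, stood out among all subclusters for the apelin ligand. APLN had 243 CPM in it, from 69 UMIs, while the other subclusters of library 1 lay between 5.90 and 37.3 CPM. ESM1, a secreted proteoglycan used as a marker of endothelial tip cells, had 247 CPM there, and VEGFC had 581 CPM. The receptor APLNR had 159 CPM in this cluster, from 45 UMIs, and 181 CPM in the larger capillary-like cluster. It had 92.9 CPM in venous-like and 11.8 CPM in arterial-like cells of library 1.

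The cluster of 601 cells led by SLCO1A2 in library 2 carried the highest FLT1 and KDR levels of that library. FLT1 had 1281 CPM in it, against 501 to 765 CPM in the arterial-like, venous-like and DPP6-led clusters. KDR had 381 CPM, VEGFC 382 CPM and PLVAP 1708 CPM. ESM1, which was also left out of the clustering, had 123 CPM there, and 2.63 to 25.3 CPM in those same 4 clusters. APLN was not high in this cluster, at 11.4 CPM, and APLNR had 53.4 CPM. TM4SF18 was highest in the DPP6-led cluster instead, at 187 CPM, where VEGFC had 81.5 CPM and APLNR 35.9 CPM.

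**Figure D4:**
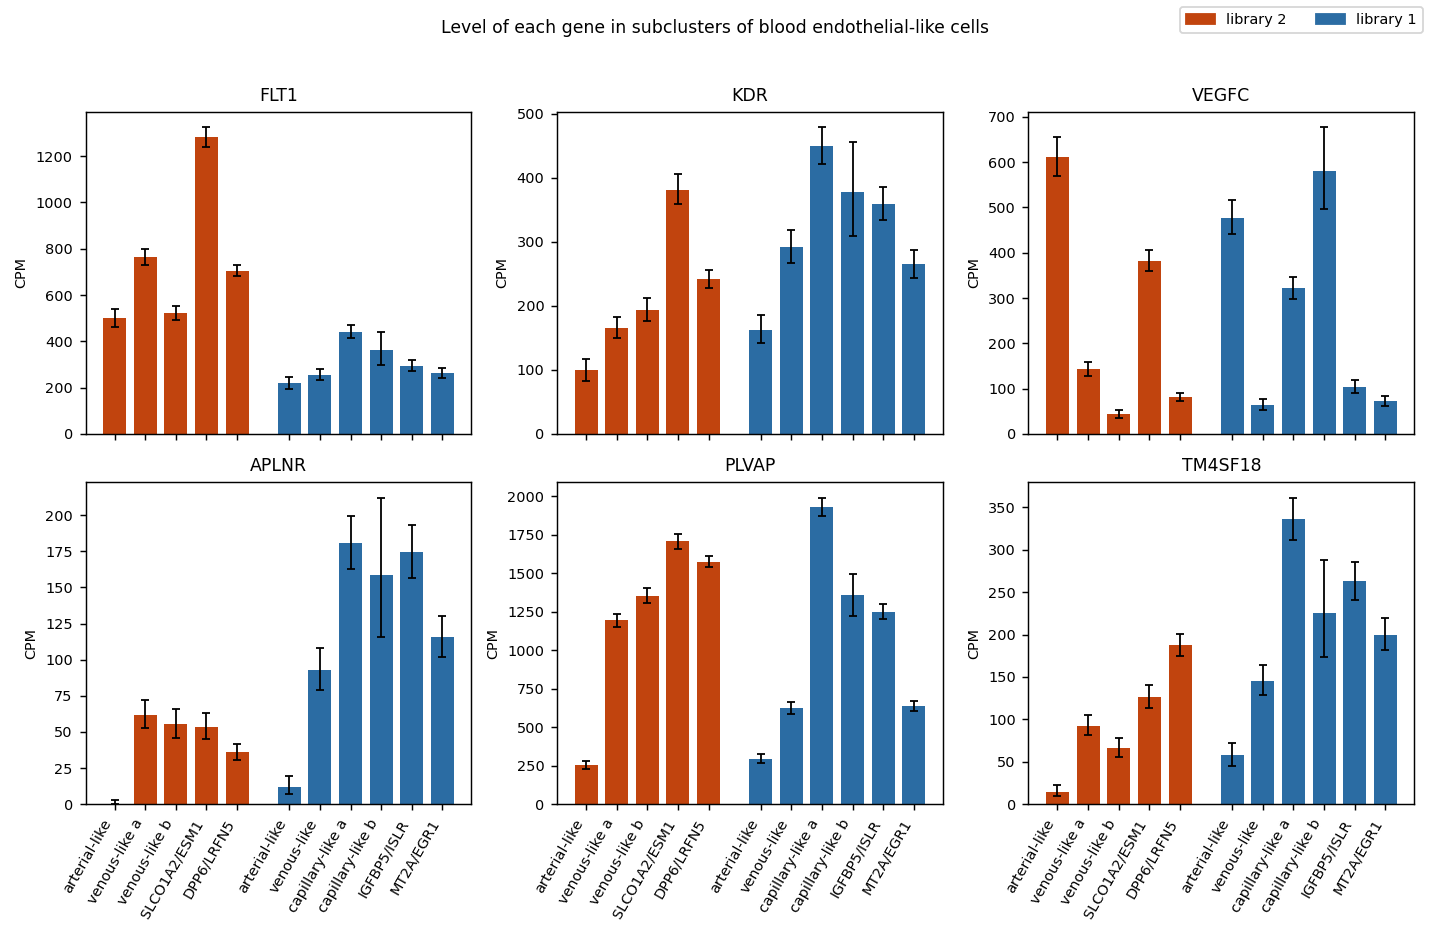
Levels of the 6 genes (CPM, bars from 0) in subclusters of blood endothelial-like cells, for 5 subclusters of library 2 on the left and 6 of library 1 on the right, with 95% counting intervals. VEGFC is high in arterial-like cells, in which APLNR, PLVAP and TM4SF18 are low, and FLT1 is high in the SLCO1A2-led cluster of library 2. Clusters led by genes of other cell classes are not drawn.

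Within zones of the same name, the difference between libraries kept its direction for FLT1, KDR, APLNR and TM4SF18. FLT1 had 650 CPM in venous-like cells of library 2 and 254 CPM in those of library 1, a log2 ratio of 1.36 (1.21 to 1.503). In arterial-like cells it had 501 CPM in library 2, against 218 CPM in library 1 (log2 ratio 1.199, interval 0.999 to 1.40). KDR was lower in library 2 in both zones, with ratios of -0.71 in venous-like and -0.71 in arterial-like cells. APLNR had 58.8 CPM in venous-like cells of library 2 and 92.9 CPM in those of library 1, a ratio of -0.66 (-0.94 to -0.37). TM4SF18 had 80.0 CPM in venous-like cells of library 2 and 146 CPM in those of library 1, a ratio of -0.86. Minus the median of genes of like span, FLT1 had 0.255 in venous-like and 0.08 in arterial-like cells. It was thus near the middle, with 57.9% and 52.3% of its quintile at a lower ratio. APLNR then had -0.19 and, at its floor, -1.95. KDR had -0.88 and -0.89, and TM4SF18 -0.69 and -1.79.

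PLVAP differed between libraries by zone. In venous-like cells it had 1271 CPM in library 2, against 623 CPM in library 1 (log2 ratio 1.03, interval 0.94 to 1.12). In arterial-like cells it had 255 CPM in library 2, against 294 CPM in library 1 (log2 ratio -0.21, interval -0.42 to 0.00). With zone clusters at resolution 1.0, PLVAP had 370 CPM in arterial-like cells of library 2, against 313 CPM in library 1. The order there thus depended on the clusters. In venous-like cells PLVAP then had 1291 CPM in library 2, against 652 CPM in library 1, just short of 2-fold. VEGFC, level over the class as a whole, had a ratio of 0.60 (0.30 to 0.91) in venous-like and 0.36 (0.21 to 0.51) in arterial-like cells. Minus the median of genes of like span, these VEGFC ratios were -0.51 and -0.77, and those of PLVAP were 1.35 and 0.13. Past 2-fold towards library 2 were FLT1 and PLVAP in venous-like cells, beside 21.9% of genes, and FLT1 in arterial-like cells, beside 21.4%. Past 2-fold towards library 1 were APLNR, at its bound, and TM4SF18 in arterial-like cells, beside 13.0% of genes, and 0 of the 6 genes in venous-like cells, beside 14.5%.

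In lymphatic endothelial-like cells, 75 in library 2 and 211 in library 1, KDR had the highest level of the 6 genes. PLVAP was close to it in library 2, with 39 UMIs beside 44 of KDR. KDR had 131 CPM in library 2, against 283 CPM in library 1 (log2 ratio -1.11, interval -1.61 to -0.63). Thinned to equal depth, 19.2% of these cells had a KDR UMI in library 2 and 23.9% in library 1. FLT1 rested on 17 UMIs in library 2 and 13 in library 1. VEGFC rested on 5 UMIs in library 2 and 15 in library 1, and APLNR on 1 UMI in library 2 and 3 in library 1. PLVAP had 116 CPM in library 2, against 56.8 CPM in library 1, and TM4SF18 23.9 and 17.04 CPM. NRP2 was highest in this class in both libraries, at 209 CPM in library 2, against 223 CPM in library 1.

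Dividing cells, a class of 72 cells in library 2 and 93 in library 1 led by CENPF and UBE2C, also carried all 6 genes. PLVAP had 1026 CPM in library 2, against 963 CPM in library 1. FLT1 had 437 CPM in library 2, against 240 CPM (239.8) in library 1, and KDR 135 and 260 CPM (259.8). The FLT1 log2 ratio was 0.87, and -0.25 minus the median of genes of like span. VEGFC had 79.9 CPM in library 2, against 190 CPM (190.4) in library 1 (log2 ratio -1.25, interval -1.71 to -0.82). APLNR, with 32.2 CPM in library 2, against 148 CPM in library 1, and TM4SF18, with 98.1 and 244 CPM, were lower in library 2 as in the blood endothelial-like class. This class was defined by the cell cycle and may hold several cell types.

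Outside the endothelium, VEGFC stood above the epithelial level in mural and stromal cells of both libraries. In smooth muscle or pericyte-like cells it had 30.4 CPM in library 2, against 29.6 CPM in library 1, while epithelial-like cells had 3.42 and 5.59 CPM. Within the mural class the level was split by cluster in the same way in both libraries. Clusters led by CCL19 and EDNRB had 38.0 CPM in library 2, against 38.6 CPM in library 1. Clusters led by MGP and ITIH4 had 6.69 CPM in library 2, against 8.33 CPM in library 1, from 9 and 18 UMIs. The counting intervals of these clusters were 32.4 to 44.3 against 3.06 to 12.7 CPM in library 2. In library 1 they were 33.4 to 44.4 against 4.94 to 13.2 CPM. The share of all genes that differ as much between these clusters is not given here, so the split is a description.

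Stromal fibroblast-like cells had 39.0 CPM of VEGFC in library 2, against 23.2 CPM in library 1 (log2 ratio 0.75, interval 0.52 to 0.99). The stromal cluster led by RORB and C3 had 66.1 CPM in library 2, where the cluster led by NRG1 had 13.1 CPM. In library 1 the cluster led by ANPEP and C3 had 32.0 CPM and the cluster led by CRABP1 had 15.4 CPM. The related ligand VEGFD, which also binds FLT4, was highest in stromal cells, at 123 CPM in library 2, against 69.0 CPM in library 1. VEGFA was highest in macrophage, monocyte or dendritic cell-like cells of library 2, at 90.8 CPM, and in stromal cells of library 1, at 85.3 CPM.

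FLT1 outside blood vessels stood further above the epithelial level in library 2 than in library 1. Smooth muscle or pericyte-like cells had 53.9 CPM in library 2, against 8.57 CPM in library 1 (log2 ratio 2.65, interval 2.26 to 3.07), and the difference between this ratio and that of blood endothelial-like cells was not tested. The CCL19 and EDNRB cluster of library 2 had 61.5 CPM and the MGP and ITIH4 cluster 30.5 CPM. The macrophage, monocyte or dendritic cell-like class had 47.3 CPM of FLT1 in library 2, from 100 UMIs, and 12.4 CPM in library 1, from 8 UMIs. Minus the median of genes of like span, the FLT1 ratio was 1.47 in the mural class and 0.94 in the macrophage-like class. Epithelial-like cells had 10.3 and 8.08 CPM. KDR had 27 UMIs in mural cells and 8 in macrophage-like cells of library 2. In library 1 KDR had 57 and 12 UMIs in these classes, beside 62 and 8 of FLT1.

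PLVAP appeared in immune classes. In macrophage, monocyte or dendritic cell-like cells it reached 109 CPM (108.7) in library 2, against 242 CPM in library 1 (log2 ratio -1.15, interval -1.45 to -0.85), opposite in direction to blood endothelial-like cells. Thinned shares were 10.3% in library 2 and 20.3% in library 1. T or NK cell-like cells had 109 CPM (109.0) in library 2, against 87.5 CPM in library 1. Thinned shares there were 9.30% in library 2 and 7.18% in library 1, beside 2.26% and 0.498% in epithelial-like cells. T or NK cell-like cells were shallower than epithelial-like cells, with a median of 1665 UMIs in library 2 and 1320 in library 1. The unnamed cells of library 2, with a median of 1104 UMIs, had 47.7 CPM of PLVAP and a thinned share of 4.42%. Stromal cells had 26.2 CPM in library 2, against 18.3 CPM in library 1. Doublets that escaped the caller and RNA from endothelial cells were not tested as sources of these counts.

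**Figure D5:**
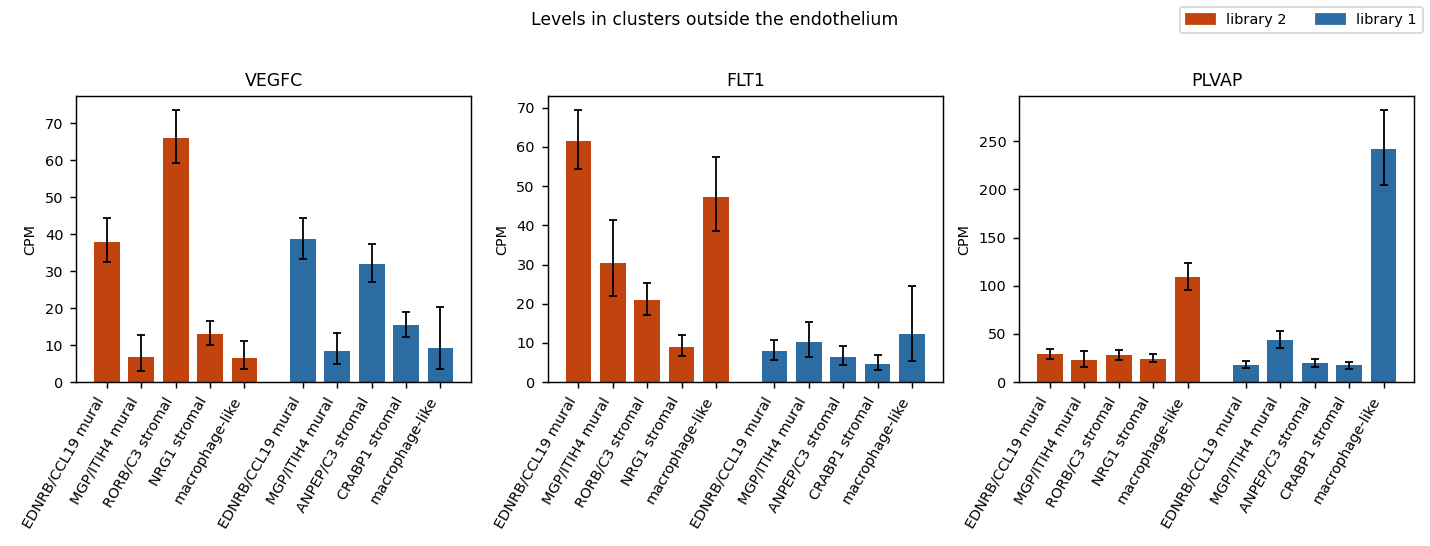
Levels of VEGFC, FLT1 and PLVAP (CPM, bars from 0) in 5 clusters of mural, stromal and macrophage-like cells, for library 2 on the left and library 1 on the right, with 95% counting intervals. VEGFC is higher in the EDNRB and CCL19 mural cluster than in the MGP and ITIH4 mural cluster in both libraries, FLT1 is higher in mural and macrophage-like cells of library 2 than in those of library 1, and PLVAP is highest in the macrophage-like cluster of both.

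In cells thinned to 1000 UMIs, PLVAP was found in a larger share of the cells with APLNR, TM4SF18, FLT1 or KDR than of the cells without. Among blood endothelial-like cells with an APLNR UMI, 79.4% had PLVAP in library 2 and 68.0% in library 1, while among cells without one 66.0% and 50.7% did. Among cells with TM4SF18, 75.1% had PLVAP in library 2 and 67.7% in library 1, against 65.7% and 49.2% without. For FLT1 these shares were 70.2% in library 2 and 61.5% in library 1, against 63.0% and 49.6% without. For KDR they were 71.6% in library 2 and 59.3% in library 1, against 65.25% and 50.2% without. VEGFC went the other way with PLVAP in library 2, at 56.2% of cells with VEGFC and 68.4% without, and in library 1 the shares were 52.1% and 52.5%. Both VEGF receptors were seen in 10.6% of cells in library 2 and 6.40% in library 1. KDR was found in 21.8% of cells with FLT1 and 18.3% of cells without in library 2, and in 26.8% and 23.9% in library 1. These shares rest on the cells of 1 library each and depend on the depth kept.

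The genes most like each member were sought over 30 classes and subclusters of both libraries, by the Pearson correlation of log2(CPM + 10) among 4143 genes. These points share libraries and depth, so the coefficients are a description. APLNR and TM4SF18 were each other's closest gene, at 0.96. KDR was closest to KANK3, TIE1 and CDH5, at 0.97 to 0.99, and FLT1 to ADPRH, LRRC3B and NOS3, at 0.95 each. PLVAP was closest to CCL14, RFLNB and HLX, at 0.93 to 0.94, and VEGFC to DEPP1, SAMM50 and ASS1, at 0.90 to 0.91. Between the 2 VEGF receptors the coefficient was 0.86 (0.855), and the lowest among members was 0.67, between VEGFC and APLNR.

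The rest of the pathway was read in blood endothelial-like cells from gene lists chosen with earlier results of these data known. Of 13 VEGF signal and response genes, 4 were past 2-fold towards library 2 and 1 towards library 1, with a median log2 ratio of 0.44. Over all genes measured in the class these shares were 24.0% and 16.7%, so the counts of this list and of the lists that follow are a description and set none of them apart. The ratios of all these lists are given without subtracting the median of genes of like span. DUSP5, a phosphatase induced by ERK signalling, had 384 CPM in library 2, against 70.5 CPM in library 1, and RCAN1, a calcineurin inhibitor induced by VEGF, had 119 and 27.8 CPM. NR4A1, an immediate-early nuclear receptor, had 143 CPM in library 2, against 39.0 CPM in library 1. SPRY2, a feedback inhibitor of receptor kinases, made the fourth, at a ratio of 1.89. DUSP6, another ERK phosphatase, was the gene on the other side, with 57.6 CPM in library 2, against 153 CPM in library 1.

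Of 11 fenestra, caveola and tip genes, 1 was past 2-fold towards library 2 and 3 towards library 1, with a median of -0.46, beside the same 24.0% and 16.7% of all genes. The caveolar coat proteins CAVIN1 and CAVIN2 had ratios of -1.02 and -1.09, while PLVAP, which sits in the same membrane pits, was higher in library 2. LXN, a carboxypeptidase inhibitor, had a ratio of -1.59, and EHD2, an ATPase at the caveolar neck, 1.82 (1.68 to 1.95). Of the 4 angiopoietin-axis genes, ANGPT1 and ANGPTL4 were past 2-fold towards library 2 at 2.53 and 1.21, and the receptors TEK and TIE1 had ratios of -0.43 and -0.65. ANGPT1, a TEK ligand of perivascular cells, was itself highest in smooth muscle or pericyte-like cells, at 247 CPM in library 2, against 69.8 CPM in library 1. Of 20 endothelial transcription factors, ERG (2.70) and FOXO1 (1.04) were past 2-fold towards library 2 and HEY2 (-1.37) towards library 1, with a median of 0.09. Of 9 hypoxia response genes, P4HA1 (1.53) and NDRG1 (1.25) were past 2-fold towards library 2 and ANKRD37 (-1.13) towards library 1, with a median of -0.25.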

How the data were processed

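Endometrial tissue was digested with enzymes and captured on the 10x droplet platform, per the labels' protocols. The authors deposited raw counts, as the number of distinct UMIs for every gene and barcode. Cell Ranger 6.1.0 produced them, per the file headers, although version 2.1.1 stands in the submitters' processing notes. Neither the genome build nor the use of intron reads is given in the sources used here. Of 26881 gene rows, 16128 had no symbol.

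Cells needed 500 UMIs and 200 genes, a filter that removed 1 barcode of library 2 and 5 of library 1. Scrublet then called 2419 doublets (16.0%) in library 2 and 1110 (11.1%) in library 1, and these were removed. Clusters, 28 in all, came from 2000 variable genes, 30 components, 15 neighbours and Leiden resolution 1.0 in scanpy 1.11.5, with the libraries not integrated. Blood endothelial-like cells were reclustered per library with 20 components at resolution 0.5. To be named, a cluster needed 3 detected markers of a class, a mean log2 fold of 0.5 or more (pseudocount 20 CPM), and a lead of 0.25 on any other class. Of 211 marker entries, 135 had a symbol.

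With 1 library a group, no test was run. Intervals at 95% are exact, by Poisson for CPM, Clopper-Pearson for shares and the conditional binomial for ratios, and ratios used a floor of 3 UMIs. Genes with at least 10 UMIs over both libraries counted as measured. Named genes were the 6 members, listed genes with at least 50 CPM in blood endothelial-like cells (20 CPM for ligands in any class) and the 3 genes most like each member with at least 100 CPM. Genes outside this rule, named because few were past 2-fold or because they lead clusters, were chosen after their values were seen. The members, marker lists and gene lists were chosen with earlier results of these data known. The calculation was tested on simulated data. Overlapping genes and paralogs that the counting could split are uncertain.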

Additional observations from a re-analysis of the deposited data

Results flagged for a closer look

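Directions between the libraries were opposite in different cell classes for 2 of the 6 genes, each with at least 50 UMIs in both libraries and an interval clear of 0. The differences between classes were not tested. The share of all genes that meet this rule was not computed, so the count is a description and sets neither gene apart. PLVAP was higher in library 2 in blood endothelial-like cells (log2 ratio 0.40), in venous-like cells (1.03) and in stromal fibroblast-like cells (0.52), and lower in library 2 in macrophage, monocyte or dendritic cell-like cells (-1.15). VEGFC was higher in library 2 in stromal fibroblast-like (0.75), venous-like (0.60) and arterial-like cells (0.36), and lower in library 2 in dividing cells (-1.25). Minus the median of genes of like span, these VEGFC values were -0.76, -0.51, -0.77 and -2.37 in the same order. Its directions were thus no longer opposite. The PLVAP values minus that median stayed opposite, at 0.62, 1.35 and 0.53, against -0.80 in macrophage, monocyte or dendritic cell-like cells. The stromal PLVAP level, 26.2 CPM in library 2 and 18.3 CPM in library 1, lies near that of epithelial-like cells.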

How the results depend on the processing

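No paired analysis was possible because each group holds 1 library. In blood endothelial-like cells, keeping called doublets, a stricter cell filter, Leiden resolution 2.0 and clustering each library alone left the log2 ratios of all 6 genes within their main intervals, as did leaving out the 64 cells of library 2 and 56 of library 1 in clusters led by genes of another class, an alternative chosen after seeing the data. Of 60 such values, 37 stayed within the main interval and 23 moved, with no direction turned except that of VEGFC, whose main interval holds 0. TMM scaling, which shifts every ratio by 0.12 and puts the median of all genes at 0.00, gave 1.47 for FLT1, -0.36 for KDR, 0.14 for VEGFC, 0.52 for PLVAP and -0.76 for TM4SF18. Scaling without ribosomal protein genes gave 1.22 for FLT1, -0.60 for KDR, -0.11 for VEGFC, 0.27 for PLVAP and -1.01 for TM4SF18. Weighting cells equally gave 1.49 for FLT1, -0.39 for KDR and 0.51 for PLVAP, and thinning to 1000 UMIs gave 1.52 for FLT1, -0.36 for KDR, 0.49 for PLVAP and -1.01 for TM4SF18. Subtracting the median of genes of like span gave 0.13 for FLT1, -0.66 for KDR, -1.196 for VEGFC, -1.05 for APLNR, 0.62 for PLVAP and -0.66 for TM4SF18. With zone clusters at resolution 1.0, the ratio of arterial-like over venous-like cells in library 2 turned to 0.055 for FLT1, against -0.38, and moved to -0.21 for KDR, -3.56 for APLNR, -1.80 for PLVAP and -1.05 for TM4SF18 (-1.045), and the cause was not tested. With the members kept among the clustering genes it moved in library 1 to -1.47 for PLVAP and -1.78 for TM4SF18. Genes past 2-fold numbered 6245, and 4151 of 12015 (34.5%) where at least 50 UMIs were required. The share of cells with both FLT1 and KDR was 25.1% in library 2 and 19.7% in library 1 at 2000 UMIs, and 52.2% and 37.4% unthinned, and that with both PLVAP and TM4SF18 was 17.2% and 25.8% at 2000 UMIs, and 34.99% and 38.7% unthinned. Depth limits APLNR, VEGFC and TM4SF18 in lymphatic endothelial-like and immune cells, where each had at most 26 UMIs in a library.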
